A study of Mus musculus with 6 samples.

Results

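The genes described here encode enzymes that modify and clear foreign compounds, together with genes tied to the stress-response factor NRF2, measured in mouse organoids of pancreatic ductal adenocarcinoma (PDAC). They were chosen by symbol: glutathione S-transferases (Gst), cytochromes P450 of families 1 to 4 (Cyp), UDP-glucuronosyltransferases of families 1 and 2 (Ugt), sulfotransferases (Sult), carbonyl reductases (Cbr) and aldo-keto reductases of family 1 (Akr1). To these were added 12 genes by name, namely Nqo1, Gclc, Gclm, Txnrd1, Srxn1, Gsr, G6pdx, Pgd, Tkt, Taldo1, Nfe2l2 and Keap1. After 2 pseudogenes were dropped, 73 of the 14254 genes in the table were members: 20 Gst, 15 Cyp, 6 Ugt, 5 Sult, 4 Cbr and 11 Akr1 genes and the 12 genes added by name. Of the 73, 68 were tested, having 10 or more normalised counts in 3 or more libraries, and Akr1c14, Cyp2d34, Cyp2r1, Cyp4f14 and Ugt2b36 did not. This filter can be passed through 1 group alone.

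RNA was sequenced from organoids of a single line, KPF_5.3G, that carried shJag1_3, a short hairpin RNA against the Notch ligand Jag1 (hairpin number 3; 3 libraries), or the control hairpin shCtrl (3 libraries). The labels give the genotype of both groups as WT, and only 1 hairpin against Jag1 is represented. Both groups grew in the same medium, which contained gastrin, Noggin, R-spondin-1, EGF and FGF-10, 10 mM nicotinamide and 1.25 mM N-acetylcysteine, a source of cysteine for glutathione. Hairpins were delivered by lentivirus, and the submitters call the 3 libraries of a group biological replicates without saying what was separate, so p-values measure the spread between these libraries.

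Clearance of foreign compounds is usually described in phases. P450 enzymes, carbonyl reductases and aldo-keto reductases first oxidise or reduce a compound, transferases then attach glutathione, glucuronic acid or sulfate to it, and membrane pumps export the product. NRF2, the protein encoded by Nfe2l2, is held low by its adaptor Keap1, and when stabilised it raises the transcription of many of these enzymes and of genes that make glutathione and NADPH.

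The libraries held 22268997 to 35172593 reads. Both replicate 1 libraries stood apart from the other 4, with a correlation of log2 values across genes of 0.99 between them and of 0.91 to 0.93 with libraries of the other group and another number. They lay above the other 4 for 20 of the 68 tested members (29.4%, against 23.7% of all genes tested) and below them for 13 members (19.1%, against 23.3%). The 7 epithelial markers, all listed, summed to 223420 to 580992 normalised counts in shJag1_3 and 171440 to 238201 in shCtrl. Of other lists, only Vil1 of 5 enterocyte markers was listed (3193 to 7317 in shJag1_3, 1796 to 2103 in shCtrl), only Cd68 of 7 immune markers (117 to 988 in shJag1_3, 98.6 to 136 in shCtrl), and 2 of 8 fibroblast, 1 of 5 endothelial, 2 of 5 hepatocyte, 1 of 5 acinar and 0 of 5 endocrine markers. Col1a1, Col1a2, Col3a1, Ptprc, Alb, Ins1 and Ins2 were not among the listed genes. The part of the epithelial and enterocyte markers in the differences below was not tested. In bulk RNA, more cells of a type and more RNA per cell cannot be told apart. Jag1 itself had 226, 321 and 557 normalised counts in shJag1_3 libraries 1, 2 and 3, against 412, 983 and 847 in shCtrl libraries 1, 2 and 3, lower in the shJag1_3 library of each pair although the groups overlapped.

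Glutathione S-transferases held 45.1% of the members' summed level per kb of exon, the 12 genes added by name 31.5% and aldo-keto reductases 18.2%. P450s (1.64%), carbonyl reductases (1.63%), UDP-glucuronosyltransferases (1.63%) and sulfotransferases (0.224%) were minor parts. The highest level of a single member was that of Gsta4, with a mean of 15592 normalised counts per kb in shJag1_3 and 8432 in shCtrl. Gsr followed with 5953 per kb in shJag1_3 and 6667 in shCtrl, then Akr1a1 with 6389 in shJag1_3 and 5014 in shCtrl, and Gsto1 with 4818 in shJag1_3 and 3444 in shCtrl. Nqo1, a widely used readout of NRF2 activity, was low in this line, at 25.0 per kb in shJag1_3 and 23.3 per kb in shCtrl.

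**Figure D1:**
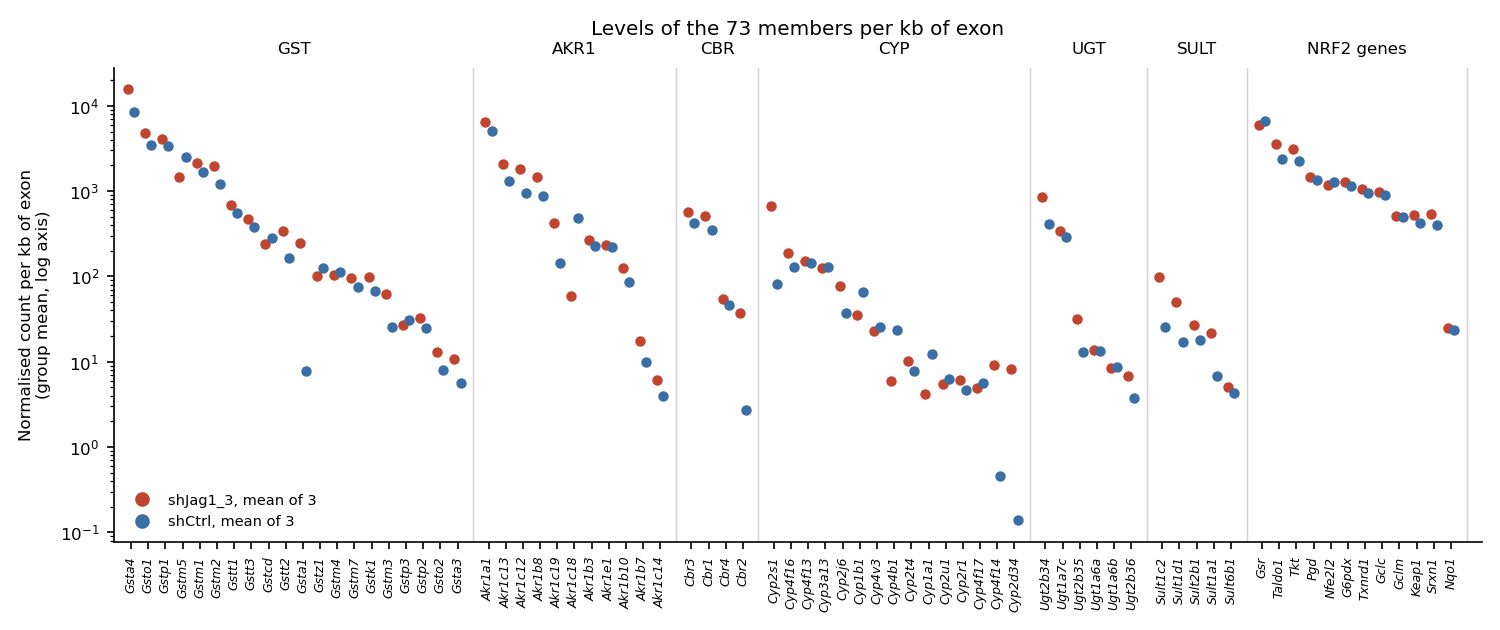
Mean normalised count per kb of exon (log axis) of the 73 member genes in shJag1_3 (red, left of each pair) and shCtrl (blue), each the mean of 3 libraries, grouped by family and ordered by level. Gsta4 is the highest at 15592 per kb in shJag1_3 and 8432 in shCtrl, and P450s and sulfotransferases lie far below it.

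The enzymes of the gene set were more often higher than lower in shJag1_3, but the P450s were not. In limma 5 of the 12 tested P450s had a positive log2 difference (41.7%, against 50.3% of all genes), with a median of -0.05. Across the 68 tested members the median log2 difference between shJag1_3 and shCtrl was 0.32, against 0.00 over all 13997 genes tested, and within replicate pairs 1, 2 and 3 the members' medians were 0.27, 0.51 and 0.32. A total of 35 members (51.5%, against 22.3% of all genes) were higher in the shJag1_3 library of all 3 pairs, and 5 (7.35%, against 19.7%) were lower in all 3. Members summed to 189786, 180545 and 167697 normalised counts in shJag1_3 libraries 1, 2 and 3 and to 156454, 125066 and 138476 in shCtrl libraries 1, 2 and 3, so the summed groups did not overlap. Scaling to spike-in RNA moved the median of all genes by -0.18 and gave the members a median of 0.14.

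Whether a single gene passed depended on the test. Limma without the replicate number called 0 members, as it called 0% of all genes in either direction, and its smallest adjusted p among members was 0.604. At an unadjusted p below 0.05, limma counted 12 of the 68 tested members and 1021 of all 13997 genes tested. EdgeR, which also called 0% of all genes, counted 14 of the 68 members and 1021 of the 13997 genes. DESeq2 with the replicate number as a term called 16 members higher (23.5%, against 4.57% of all genes) and 2 lower (2.94%, against 2.58%). Below, "rose" and "fell" refer to this DESeq2 fit, at an adjusted p below 0.05, and an adjusted p given with no tool is its value. This DESeq2 fit was an alternative to the main limma fit without the replicate term. Of the fits on all 6 libraries it called the most genes, so "rose" and "fell" mark its calls alone. The 16 genes that rose were Cyp2s1, Akr1c19, Ugt2b34, Gstt2, Akr1c12, Gstm2, Cbr2, Gsta4, Gsta1, Sult1d1, Cyp2j6, Akr1c13, Taldo1, Cbr1, Gstm3 and Akr1b8, and the 2 that fell were Akr1c18 and Cyp4b1. Of these, Cbr2, Gsta1, Gstm3 and Sult1d1 had 10 or more normalised counts in all 3 libraries only in shJag1_3, and Cyp4b1 only in shCtrl. Those genes passed the filter through the group where they were high. For all genes that rose or fell, the limma adjusted p ran from 0.604 to 0.846 without the replicate term. DESeq2 without that term called 3 members higher, Akr1c19, Gsta1 and Gstt2 (0.722% of all genes were called higher by it). Limma and edgeR with the term called only Cyp2s1 among the members (each called 0.0143% of all genes higher).

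Calls also rested on which libraries entered. Without both replicate 1 libraries, DESeq2 with the replicate term called 13 members higher and 3 lower (8.97% and 6.23% of all genes), 12 of the 13 among the 16. Without the replicate 2 libraries it called 3 higher, Cyp2s1, Akr1c19 and Gsta1 (0.457% of all genes), and without the replicate 3 libraries 7, of which 6 were among the 16 (0.607%). Limma on replicates 2 and 3 alone called 13 members higher and 2 lower (6.04% and 3.57% of all genes). All 16 genes were higher in all 3 pairs, and in 12 of them pair 1 had the smallest difference. They were picked from the same libraries by a fit with the replicate term, so agreement of pairs or signs is no separate support. With spike-in scaling all 16 still had a positive log2 difference, and Cyp2s1 and Akr1c18 alone kept an adjusted p below 0.05. That fit called 0.286% of all genes higher and 0.507% lower. Spike-in RNA made up 0.74%, 1.04% and 0.46% of reads in shJag1_3 libraries 1, 2 and 3. In shCtrl libraries 1, 2 and 3 it made up 0.53%, 0.67% and 0.71%. The part of this uneven share in the lost calls was not tested. Members whose groups did not overlap numbered 13 higher (19.1%, against 6.29% of all genes) and 1 lower, Cyp4b1 (1.47%, against 5.44%). Among them Cbr2, Gsta1, Sult1a1 and Cyp4b1 passed the filter only through the group where they were high. For every member without overlap an exact permutation test gives p = 0.1, the smallest that 3 against 3 libraries allow.

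**Figure D2:**
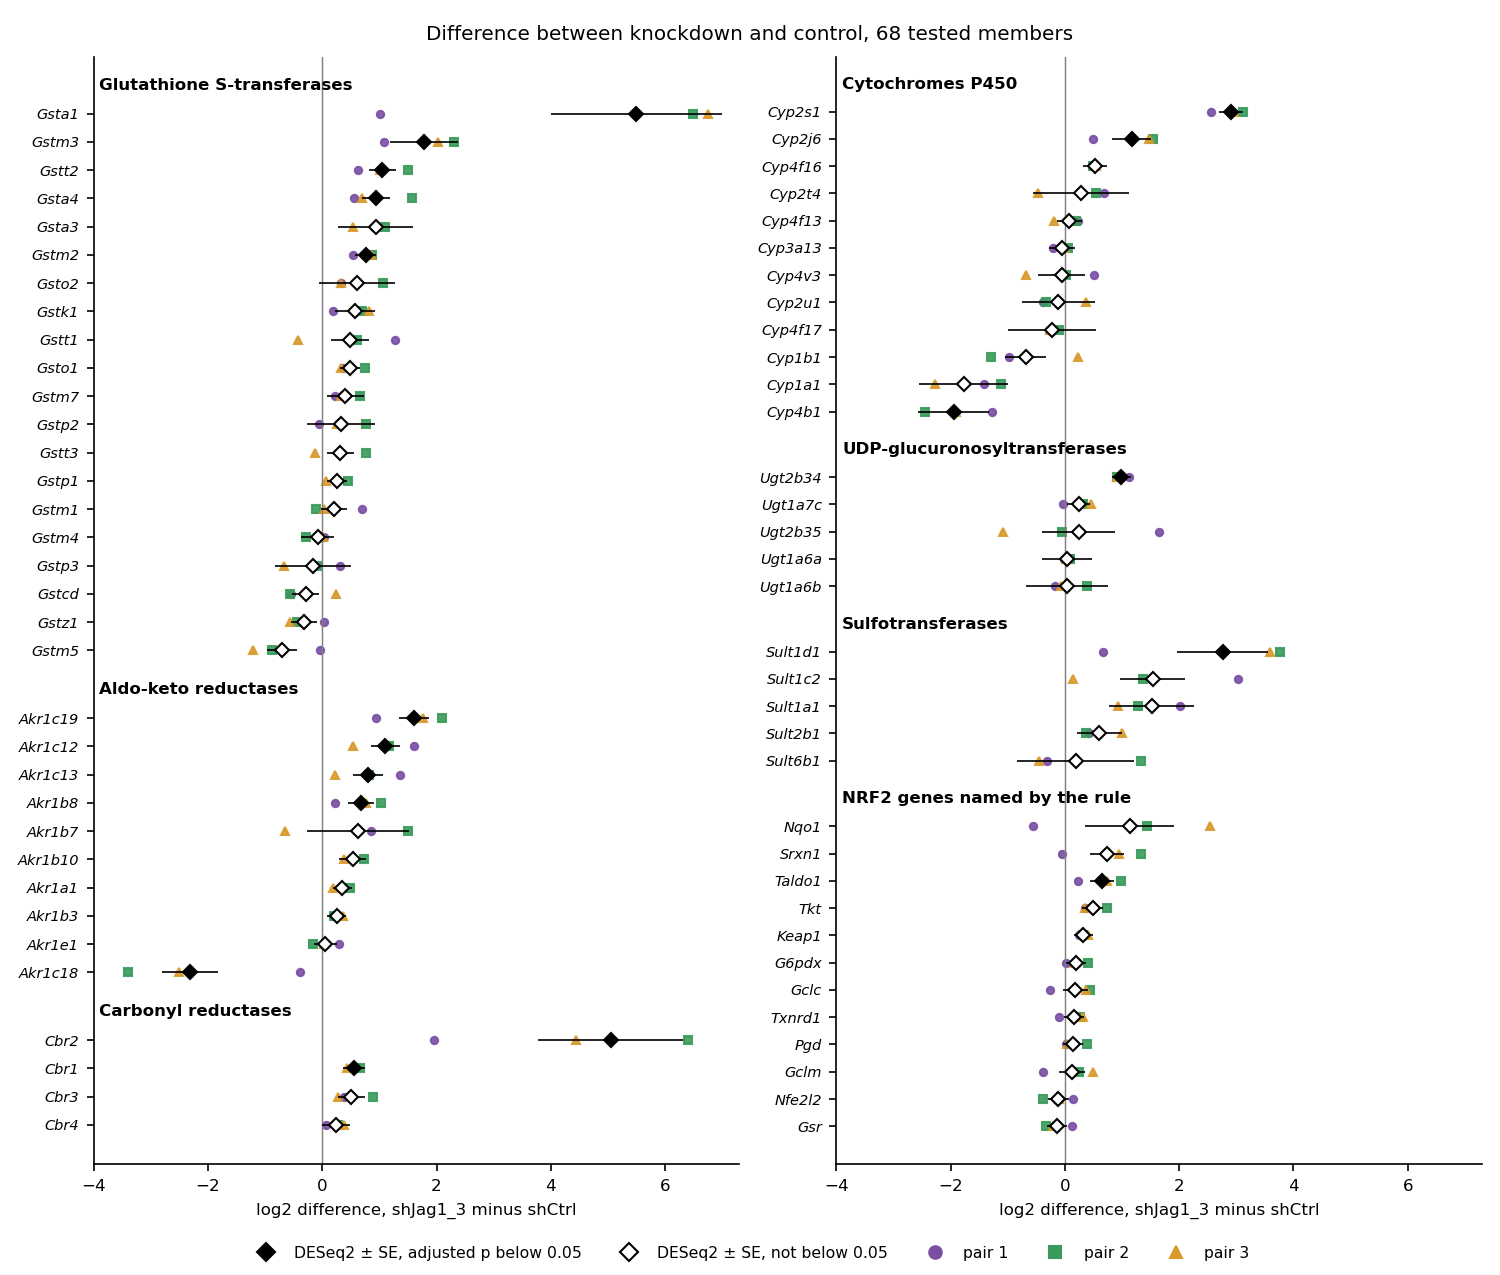
Log2 difference, shJag1_3 minus shCtrl, of the 68 tested members by family. Diamonds are DESeq2 estimates with the replicate term (bars, SE; filled where the adjusted p was below 0.05), and coloured symbols are the 3 pairs on log2 of the normalised count plus 1. Of the 18 filled diamonds 16 lie to the right of 0.

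Promoters of 4 genes that rose and 2 NRF2 target genes are shown, because they were searched for the letters of the antioxidant response element that NRF2 binds with a small Maf protein (TGACNNNGC) and of the xenobiotic response element that the aryl hydrocarbon receptor binds with Arnt (GCGTG). Each window runs from 250 bases before to 50 bases after the start of transcription in RefSeq (GRCm38.p6), printed 5′ to 3′ on the gene's strand. Capitals mark matches on either strand, so a match on the opposite strand appears as the reverse complement. The windows are chr7:25816476-25816775 (minus strand) for Cyp2s1, chr13:4233490-4233789 (plus strand) for Akr1c19, chr9:78230419-78230718 (plus strand) for Gsta1, chr4:96553602-96553901 (minus strand) for Cyp2j6, chr2:152105274-152105573 (plus strand) for Srxn1 and chr3:122245307-122245606 (plus strand) for Gclm.
Cyp2s1: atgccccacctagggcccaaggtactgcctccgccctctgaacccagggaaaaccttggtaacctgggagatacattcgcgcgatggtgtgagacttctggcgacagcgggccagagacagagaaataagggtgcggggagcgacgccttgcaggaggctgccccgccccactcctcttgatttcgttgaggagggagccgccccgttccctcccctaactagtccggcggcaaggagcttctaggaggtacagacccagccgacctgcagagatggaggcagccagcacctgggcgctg
Akr1c19: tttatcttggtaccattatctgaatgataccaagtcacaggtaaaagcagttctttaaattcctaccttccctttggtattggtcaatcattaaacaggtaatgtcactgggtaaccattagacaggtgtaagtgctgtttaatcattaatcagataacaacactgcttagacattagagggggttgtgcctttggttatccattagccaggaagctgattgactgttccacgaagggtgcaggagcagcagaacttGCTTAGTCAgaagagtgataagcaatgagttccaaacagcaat
Gsta1: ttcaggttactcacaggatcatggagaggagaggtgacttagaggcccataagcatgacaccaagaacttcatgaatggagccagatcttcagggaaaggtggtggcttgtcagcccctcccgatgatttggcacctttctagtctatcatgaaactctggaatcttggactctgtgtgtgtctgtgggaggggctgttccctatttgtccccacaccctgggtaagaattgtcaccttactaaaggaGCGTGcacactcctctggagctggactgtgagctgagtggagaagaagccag
Cyp2j6: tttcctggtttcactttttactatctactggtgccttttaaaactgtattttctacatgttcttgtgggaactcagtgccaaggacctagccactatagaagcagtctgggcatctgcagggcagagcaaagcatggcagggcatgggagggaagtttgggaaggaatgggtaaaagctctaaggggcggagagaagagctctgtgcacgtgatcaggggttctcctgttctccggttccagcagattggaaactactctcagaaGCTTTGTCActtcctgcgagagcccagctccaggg
Srxn1: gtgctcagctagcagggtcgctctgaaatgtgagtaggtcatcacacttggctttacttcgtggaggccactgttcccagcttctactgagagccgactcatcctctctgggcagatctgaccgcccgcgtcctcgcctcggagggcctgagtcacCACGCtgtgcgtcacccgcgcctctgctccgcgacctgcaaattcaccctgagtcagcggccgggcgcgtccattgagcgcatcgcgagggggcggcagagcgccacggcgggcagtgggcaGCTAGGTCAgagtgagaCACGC
Gclm: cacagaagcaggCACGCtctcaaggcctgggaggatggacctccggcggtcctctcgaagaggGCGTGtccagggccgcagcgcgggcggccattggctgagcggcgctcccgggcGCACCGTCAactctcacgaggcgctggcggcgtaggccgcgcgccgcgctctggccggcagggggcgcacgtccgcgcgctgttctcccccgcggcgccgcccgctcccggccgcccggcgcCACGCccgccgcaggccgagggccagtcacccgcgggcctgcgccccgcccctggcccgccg
The Cyp2s1 window held neither run of letters, those of Akr1c19 and Cyp2j6 held TGACNNNGC, that of Gsta1 held GCGTG, and those of Srxn1 and Gclm held both. The Cyp2s1 and Akr1c19 windows lie wholly inside the annotated genes (chr7:25802475-25816913 and chr13:4228700-4252843), downstream of their 5′ ends. For these genes the sequence at the annotated 5′ end was not searched. No match overlapped another in these 6 windows. RefSeq windows were found for 64 of the 73 members. TGACNNNGC occurred in 12 of their 78 windows (15.4%), against 14.3% of the 13164 windows of genes in the expression table and 12.4% of all 32851 RefSeq windows. GCGTG occurred in 29 (37.2%), against 50.0% of the windows of genes in the expression table and 32.4% of all windows. Among the 16 genes that rose, 14 had a window, and TGACNNNGC was found for 2 of them (Akr1c19 and Cyp2j6) and GCGTG for 5 (Akr1b8, Cbr1, Gsta1, Sult1d1 and Taldo1). Among the 12 genes added by name, 10 had a window, of which 6 held TGACNNNGC (G6pdx, Gclm, Nfe2l2, Pgd, Srxn1 and Txnrd1) and 8 held GCGTG (G6pdx, Gclm, Keap1, Pgd, Srxn1, Taldo1, Tkt and Txnrd1). Over all genes of the expression table with a window, 1737 of 10304 held TGACNNNGC and 5770 held GCGTG. A match is a description of these letters in the window.

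Among the 12 tested P450s, Cyp2s1 and Cyp2j6 rose (16.7%, against 4.57% of all genes) and Cyp4b1 fell (8.33%, against 2.58%). Cyp2s1 had the smallest adjusted p of all members. Cyp2s1 (ENSMUSG00000040703, chr7:25802475-25816913, minus strand, GRCm38) encodes a P450 of epithelia outside the liver. It had 410.5, 6251 and 3330.0 normalised counts in shJag1_3 libraries 1, 2 and 3, against 68.8, 719 and 429 in shCtrl libraries 1, 2 and 3. Library 1 was the lowest of each group, so that shJag1_3 1 lay below shCtrl 2 and 3 and the groups overlapped. Within every pair the shJag1_3 library was higher, by 5.97, 8.69 and 7.77 times. The log2 difference was 2.91 (SE 0.21, adjusted p = 1.23e-41 in DESeq2 with the replicate term), and limma and edgeR with that term gave adjusted p = 0.0178 and 0.0239, against 0.684 in limma without it. Its exons shared no run of 50 bases with another gene.

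Cyp2j6, of a subfamily that oxidises arachidonic acid, had 310.5, 262 and 261 normalised counts in shJag1_3 and 219.6, 89.6 and 93.4 in shCtrl, with no overlap (log2 difference 1.17, SE 0.34, adjusted p = 0.014 in DESeq2 with the replicate term). Cyp4b1, which hydroxylates fatty acids and activates some protoxins, fell, with 11.4, 8.60 and 19.9 in shJag1_3 and 29.0, 51.7 and 77.2 in shCtrl (log2 difference -1.95, SE 0.62, adjusted p = 0.0305 in DESeq2 with the replicate term). Its 3 shJag1_3 libraries lay below every shCtrl library, all at low counts. The other 9 tested P450s did not pass, with log2 differences of -1.77 to 0.52. Of these, Cyp4f13 and Cyp4f16, fatty acid hydroxylases, had the highest counts. Cyp4f13 had a mean of 665 in shJag1_3 and 635 in shCtrl (SD 280.0 and 259, n = 3 each). Cyp4f16 had 591, 622 and 503 in shJag1_3 and 413, 443 and 344 in shCtrl, without overlap (log2 difference 0.52, SE 0.21, adjusted p = 0.113 in DESeq2 with the replicate term), and 17.4% of its exonic 50-base runs occur in other genes. Cyp1a1 and Cyp1b1, the classical targets of the aryl hydrocarbon receptor, were named after their values were seen. Cyp1a1 had 28.1, 3.69 and 3.06 normalised counts in shJag1_3 and 76.2, 9.19 and 18.7 in shCtrl, and Cyp1b1 had 513, 30.7 and 77.2 in shJag1_3 and 1014, 76.9 and 66.0 in shCtrl. Both were highest in the replicate 1 libraries of both groups, and neither passed (adjusted p = 0.167 and 0.284 in DESeq2 with the replicate term).

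Carbonyl reductases use NADPH to reduce carbonyl groups of quinones, prostaglandins and drugs. Of the 4 tested, 2 rose (50%, against 4.57% of all genes) and 0 fell. Cbr1 had 1651, 1241 and 1014 normalised counts in shJag1_3 and 1112, 786 and 751 in shCtrl. Each shJag1_3 library was above its own pair's control and the groups overlapped (log2 difference 0.56, SE 0.18, adjusted p = 0.0391 in DESeq2 with the replicate term). Cbr2 was nearly absent from shCtrl, with 0 reads in libraries 2 and 3 and 13 reads in library 1, against 51, 68 and 27 reads in shJag1_3 libraries 1, 2 and 3. As normalised counts these were 44.7, 83.6 and 20.6 in shJag1_3 and 10.8, 0 and 0 in shCtrl, and 12.1% of its exonic 50-base runs occur in Gm11771. The DESeq2 adjusted p with the replicate term was 0.0034, and its fitted difference depends on the counts of 0. Cbr3, next to Cbr1 on chromosome 16, was highest in both replicate 1 libraries, with 1568, 327 and 251 in shJag1_3 and 1201, 177 and 207 in shCtrl (adjusted p = 0.193). Cbr4 had a mean of 341 ± 7.92 in shJag1_3 and 289.9 ± 29.1 in shCtrl (SD, n = 3 each; DESeq2 adjusted p with the replicate term 0.674), and its groups did not overlap.

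Aldo-keto reductases reduce aldehydes, ketones and steroids. Of 10 tested, 4 rose (40%, against 4.57% of all genes) and 1 fell (10%, against 2.58%). Akr1c19 (ENSMUSG00000071551, chr13:4228700-4252843, plus strand) had 2165, 2784 and 2527 normalised counts in shJag1_3 libraries 1, 2 and 3, against 1127, 648 and 746 in shCtrl libraries 1, 2 and 3. Every shJag1_3 library was above every shCtrl library, and the ratios within pairs were 1.92, 4.30 and 3.39. The log2 difference was 1.60 (SE 0.26, adjusted p = 6.16e-07 in DESeq2 with the replicate term and 1.60e-04 without it), while limma gave 0.604 and 0.136 with the replicate term.

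Akr1c12 and Akr1c13 lie in the same cluster and share 28.6% and 24.2% of their exonic 50-base runs with each other, so reads may have been split between them. Akr1c12 had 1128, 3202 and 2631 normalised counts in shJag1_3 and 372, 1418 and 1808 in shCtrl (log2 difference 1.10, SE 0.25, adjusted p = 8.01e-04 in DESeq2 with the replicate term). Akr1c13 had 1427, 4352 and 3127 in shJag1_3 and 552, 2470.3 and 2683 in shCtrl (0.80, SE 0.26, adjusted p = 0.0296). Library 1 was the lowest of each group for both genes, the groups overlapped, and pair 1 had the largest difference and pair 3 the smallest.

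Akr1c18, whose product inactivates progesterone, went the other way within this cluster. It fell to 10.5, 123 and 77.2 normalised counts in shJag1_3 libraries 1, 2 and 3, against 14.1, 1304 and 445 in shCtrl libraries 1, 2 and 3 (log2 difference -2.32, SE 0.49, adjusted p = 2.35e-04 in DESeq2 with the replicate term). The gene was low in both replicate 1 libraries, and the difference came from pairs 2 and 3, where the ratios were 0.0943 and 0.174 against 0.747 in pair 1. Of 6 members within this stretch of chromosome 13 (4049011 to 4609174), Akr1c14 was too low to test and Akr1e1 did not pass, so 3 rose and 1 fell side by side.

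**Figure D3:**
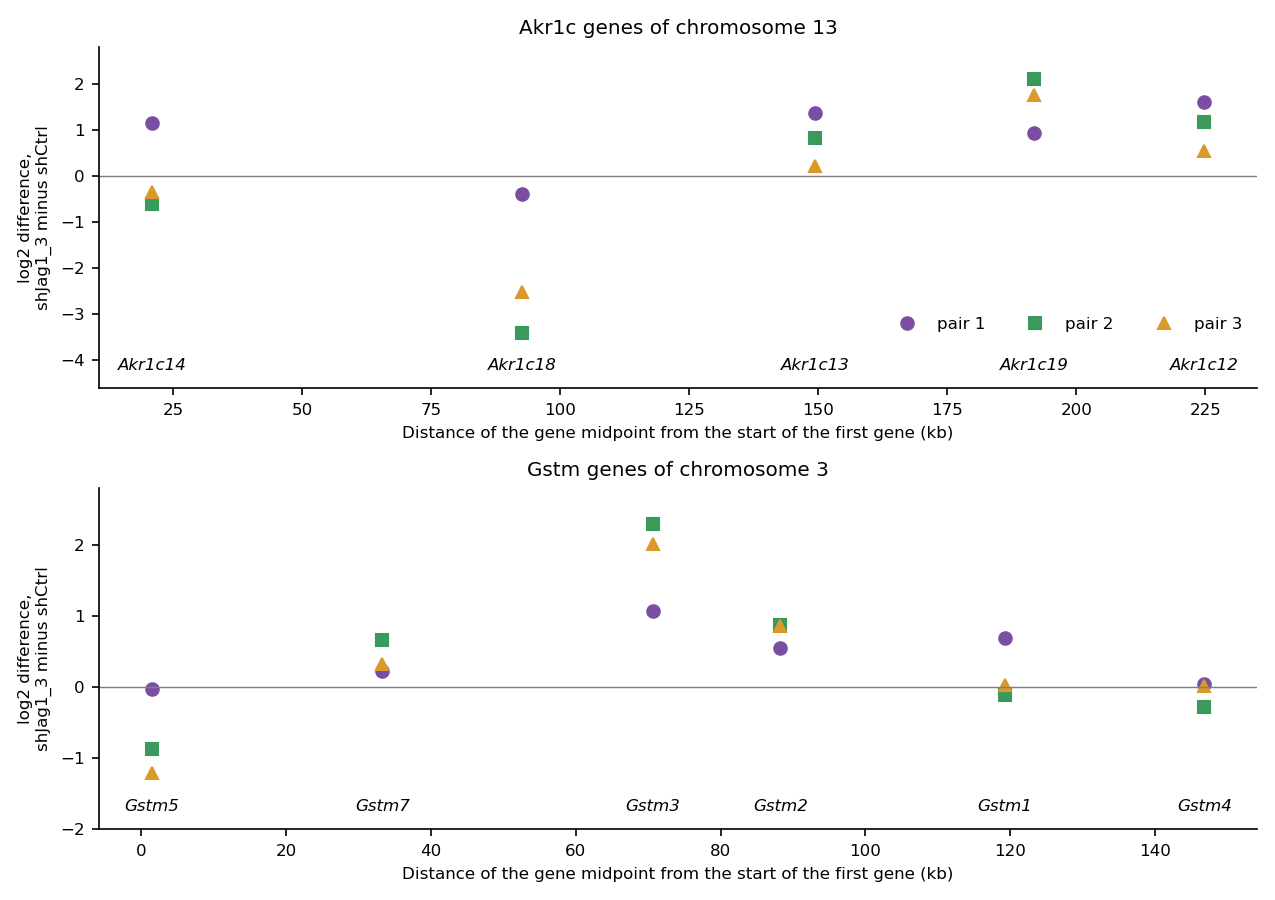
Log2 difference, shJag1_3 minus shCtrl, on log2 of the normalised count plus 1, within each of 3 replicate pairs for the Akr1c genes of chromosome 13 (top) and the Gstm genes of chromosome 3 (bottom), against the distance of the gene's midpoint from the start of the first gene in kb. In the top panel Akr1c18 lies below 0 while Akr1c13, Akr1c19 and Akr1c12 lie above it in every pair.

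Akr1b8, an aldose reductase-like enzyme, had 1331, 2893 and 2345 normalised counts in shJag1_3 and 1147, 1415 and 1375 in shCtrl (log2 difference 0.67, SE 0.23, adjusted p = 0.0415 in DESeq2 with the replicate term). Only shJag1_3 1 reached into the range of shCtrl. The most abundant of the family, Akr1a1 (aldehyde reductase), had 20055, 17175 and 15482 in shJag1_3 and 15632, 12231 and 13506 in shCtrl, higher in each pair but not past the threshold (0.35, SE 0.16, adjusted p = 0.207). Akr1b3 (aldose reductase, which turns glucose into sorbitol) averaged 2269 ± 415 in shJag1_3 and 1919 ± 433 in shCtrl (SD, n = 3 each; adjusted p = 0.465). The 5 tested aldo-keto reductases that did not pass had log2 differences of 0.05 to 0.63.

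Of 20 glutathione S-transferases tested, 5 rose (25%, against 4.57% of all genes) and none fell (against 2.58%). The 5 were of the alpha, mu and theta classes. Gsta4 (ENSMUSG00000032348, chr9:78182774-78209349, plus strand), an alpha-class enzyme that conjugates the lipid peroxidation product 4-hydroxynonenal, had 20172, 21011 and 18038 normalised counts in shJag1_3 libraries 1, 2 and 3, against 13794, 7083 and 11148 in shCtrl libraries 1, 2 and 3. The groups did not overlap, and the ratios within pairs were 1.46, 2.97 and 1.62. The log2 difference was 0.94 (SE 0.24, adjusted p = 0.00472 in DESeq2 with the replicate term and 0.15 without it; 0.606 in limma).

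Gsta1 (ENSMUSG00000074183, chr9:78230656-78242684, plus strand), another alpha-class gene beside Gsta4, was close to the detection limit in shCtrl. It had 36.0, 294 and 377 normalised counts in shJag1_3 libraries 1, 2 and 3 and 17.4, 2.30 and 2.49 in shCtrl libraries 1, 2 and 3, the last 2 values standing for 2 reads each. All shJag1_3 libraries were above all shCtrl libraries, narrowly so in pair 1. DESeq2 with the replicate term gave a log2 difference of 5.50 (SE 1.49, adjusted p = 0.00715), which depends on these few control reads. A share of 90.5% of the exonic 50-base runs of Gsta1 occurs in other genes, 75.7% in the neighbouring Gm3776. Gm3776 had 21.9, 183 and 282 in shJag1_3 and 9.11, 2.30 and 3.74 in shCtrl, so the counts of the pair are uncertain singly.

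Gstt2, of the theta class, had 1227, 1529 and 1440.3 normalised counts in shJag1_3 and 790.4, 541 and 713 in shCtrl. All 3 shJag1_3 libraries were above all 3 shCtrl libraries (log2 difference 1.05, SE 0.24, adjusted p = 7.99e-04 in DESeq2 with the replicate term and 0.00668 without it). Its neighbours Gstt1 and Gstt3 on chromosome 10 did not pass. Gstm2, of the mu class, had 4927, 2289 and 2577 in shJag1_3 and 3382, 1255 and 1418 in shCtrl (0.76, SE 0.18, adjusted p = 0.00136 in DESeq2 with the replicate term). Gstm3 had 193, 20.9 and 28.3 in shJag1_3 and 91.1, 3.45 and 6.23 in shCtrl (1.78, SE 0.59, adjusted p = 0.0398), and 28.8% of its exonic 50-base runs occur in other genes. In both mu-class genes library 1 was the highest of its group, the groups overlapped, and each pair was higher in shJag1_3.

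Gstm5, in the same cluster of 6 mu-class genes and named after its values were seen, showed the opposite sign. It had 1869, 2091 and 1686 normalised counts in shJag1_3 and 1915, 3835 and 3904 in shCtrl (log2 difference -0.71, SE 0.26, adjusted p = 0.0758 in DESeq2 with the replicate term). Pair 1 hardly differed for this gene, and without the replicate 1 libraries the adjusted p was 3.63e-05. Among abundant enzymes that did not pass, Gsto1 (omega class) had 8913, 10748 and 9577 in shJag1_3 and 6917, 6394 and 7590.1 in shCtrl, without overlap (0.48, SE 0.18, adjusted p = 0.0751). Gstp1 (pi class) averaged 6295 ± 835 in shJag1_3 and 5243 ± 395 in shCtrl (SD, n = 3 each; adjusted p = 0.459), with part of its exons shared with Gstp2. The 15 transferases that did not pass had log2 differences of -0.71 to 0.93.

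**Figure D4:**
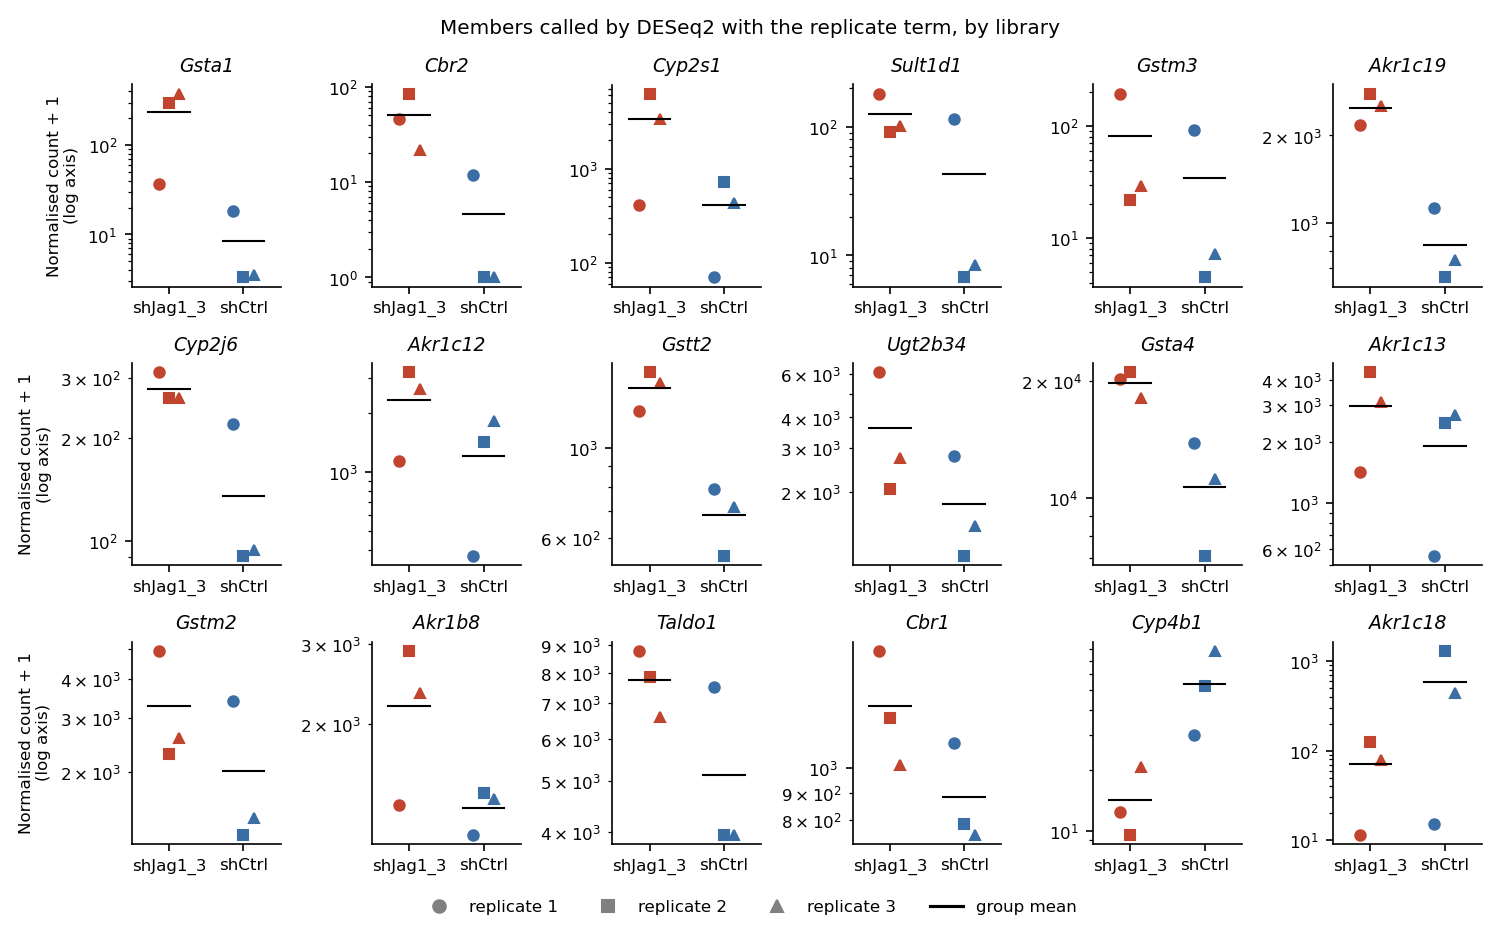
Normalised count plus 1 (log axis) by library for the 18 members with an adjusted p below 0.05 in DESeq2 with the replicate term, shJag1_3 (red) left of shCtrl (blue), with symbols for the replicate number and a line at the group mean. Cyp2s1, Akr1c12 and Akr1c13 are lowest in library 1 of both groups, whereas Ugt2b34, Gstm2, Gstm3 and Sult1d1 are highest there.

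Conjugation with glucuronic acid and with sulfate each had 1 gene that rose among 5 tested (20% each, against 4.57% of all genes). Ugt2b34, which attaches glucuronic acid, had 6102, 2055 and 2735 normalised counts in shJag1_3 and 2789, 1093 and 1454 in shCtrl. Library 1 was the highest of each group and the groups overlapped, but the ratios within pairs were close to each other at 2.19, 1.88 and 1.88 (log2 difference 0.99, SE 0.17, adjusted p = 2.29e-06 in DESeq2 with the replicate term and 0.535 without it). The other 4 tested UDP-glucuronosyltransferases had log2 differences of 0.03 to 0.24. Ugt2b35, in the same cluster as Ugt2b34, had 291, 11.1 and 13 in shJag1_3 and 92.0, 11.5 and 28.7 in shCtrl (adjusted p = 0.912), and Ugt1a7c, whose exons are largely shared with the other Ugt1a genes, averaged 1440.0 ± 258 in shJag1_3 and 1219 ± 235 in shCtrl (SD, n = 3 each).

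Sult1d1, a sulfotransferase of catecholamines in the mouse, had 181, 90.9 and 101 normalised counts in shJag1_3 and 114, 5.74 and 7.47 in shCtrl. The difference was wide in pairs 2 and 3 and narrow in pair 1, where shCtrl 1 lay above shJag1_3 2 and 3 (log2 difference 2.76, SE 0.80, adjusted p = 0.0131 in DESeq2 with the replicate term). Sult1c2 had 385, 87.2 and 67.2 in shJag1_3 and 46.4, 33.3 and 61.0 in shCtrl, with no overlap (1.53, SE 0.56, adjusted p = 0.0738, and 0.0277 without the replicate 3 libraries). Sult2b1, a cholesterol sulfotransferase, had 99.1, 107 and 111 in shJag1_3 and 73.7, 82.7 and 54.8 in shCtrl, again with no overlap (0.60, SE 0.39, adjusted p = 0.435). All 5 sulfotransferases had a positive log2 difference, as 50.3% of all genes had in limma, and DESeq2 gave Sult6b1 no adjusted p.

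Of the 12 genes added for their link to NRF2, Taldo1 rose, none fell, and 11 did not pass. Nfe2l2 (ENSMUSG00000015839, chr2:75675513-75704641, minus strand) had 4214, 4059.9 and 5243 normalised counts in shJag1_3 libraries 1, 2 and 3, against 3843, 5286 and 5604 in shCtrl libraries 1, 2 and 3 (log2 difference -0.11, SE 0.19, adjusted p = 0.829 in DESeq2 with the replicate term). Keap1 had 2841, 2434 and 2193 in shJag1_3 and 2394, 1965 and 1658 in shCtrl, higher in each pair (0.32, SE 0.17, adjusted p = 0.283). The groups overlapped for both genes. The 1 gene that rose made 8.33% of the 12, against 4.57% of all genes.

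Neither subunit of the enzyme that starts glutathione synthesis passed. Gclc, the catalytic subunit of glutamate-cysteine ligase, had 3765, 3160.4 and 4155 normalised counts in shJag1_3 and 4520.3, 2322 and 3220.2 in shCtrl (log2 difference 0.18, SE 0.21, adjusted p = 0.726 in DESeq2 with the replicate term). Gclm, its modifier subunit, had 3508, 2569 and 3657 in shJag1_3 and 4553, 2161 and 2607 in shCtrl (0.12, SE 0.23, adjusted p = 0.852). Both were lower in shJag1_3 in pair 1 and higher in pairs 2 and 3. With spike-in scaling both DESeq2 differences were slightly negative (-0.01 and -0.08), where the median of all genes was -0.18. Gsr, glutathione reductase, averaged 16394 ± 1592 in shJag1_3 and 18361 ± 4151 in shCtrl (SD, n = 3 each; adjusted p = 0.76).

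Nqo1 and Srxn1 were higher in both replicate 1 libraries than in the other 4, and neither passed. Nqo1 (ENSMUSG00000003849, chr8:107388225-107403206, minus strand), a quinone reductase, had 65.8, 17.2 and 33.6 normalised counts in shJag1_3 and 97.8, 5.74 and 4.98 in shCtrl (log2 difference 1.14, SE 0.78, adjusted p = 0.472 in DESeq2 with the replicate term). It was lower in shJag1_3 in pair 1 and higher in pairs 2 and 3, with 5 and 4 reads in shCtrl 2 and 3. Srxn1, sulfiredoxin, which repairs oxidised peroxiredoxins, had 2246, 1148 and 1120.2 in shJag1_3 and 2341, 456 and 582 in shCtrl (0.74, SE 0.29, adjusted p = 0.108). Pair 1 was level for Srxn1, pairs 2 and 3 differed by 2.52 and 1.93 times, and without the replicate 1 libraries its adjusted p was 1.73e-04. Txnrd1, thioredoxin reductase, averaged 7459 ± 854 in shJag1_3 and 6771 ± 1609.9 in shCtrl (SD, n = 3 each; adjusted p = 0.71). Its DESeq2 difference of 0.16 was -0.03 with spike-in scaling, where the median of all genes was -0.18.

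Of 4 enzymes of the pentose phosphate pathway, a source of NADPH, 1 passed. Taldo1, transaldolase of the non-oxidative branch, had 8785, 7848 and 6584 normalised counts in shJag1_3 and 7497, 3959 and 3959 in shCtrl. It was higher in each pair and shCtrl 1 lay within the range of shJag1_3 (log2 difference 0.65, SE 0.21, adjusted p = 0.0322 in DESeq2 with the replicate term). Tkt, transketolase of the same branch, had 25114, 24335 and 19256 in shJag1_3 and 19613, 14553 and 15133 in shCtrl, higher in each pair but short of the threshold (0.48, SE 0.18, adjusted p = 0.07). The oxidative dehydrogenases G6pdx and Pgd averaged 3919.9 ± 693 and 9445 ± 2592 in shJag1_3, against 3492 ± 1063 and 8688 ± 3079.9 in shCtrl (SD, n = 3 each), with adjusted p = 0.616 and 0.739. The DESeq2 difference of Pgd, 0.14, was -0.04 with spike-in scaling, where the median of all genes was -0.18.

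**Figure D5:**
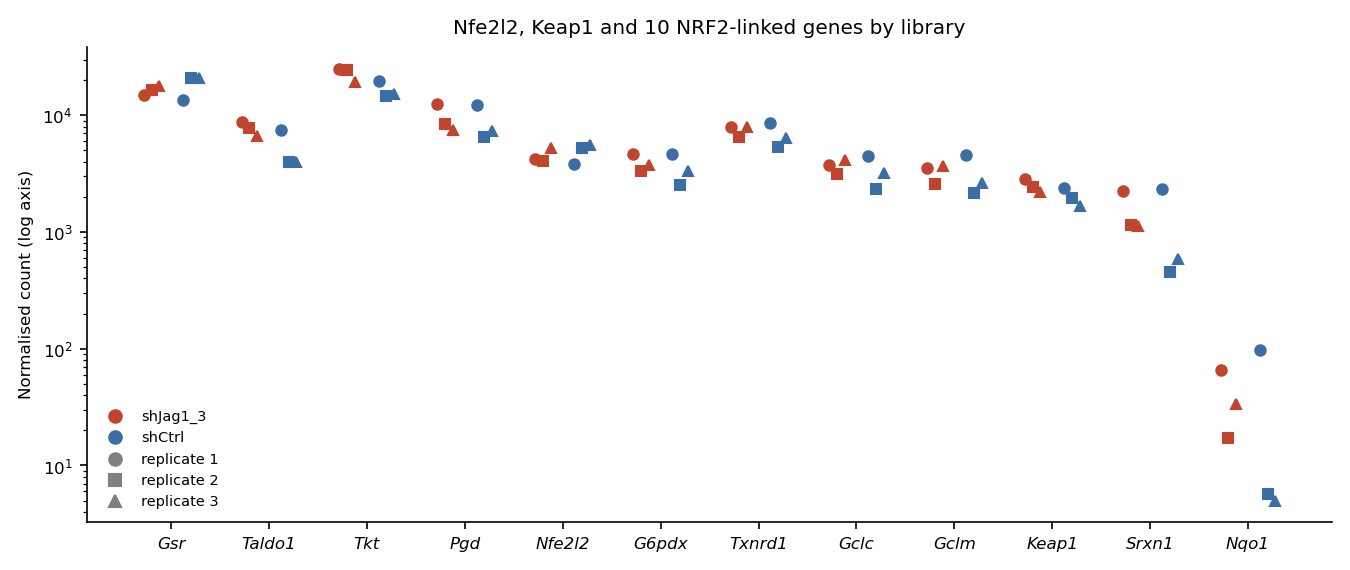
Normalised counts (log axis) by library of the 12 genes added by name, shJag1_3 (red) left of shCtrl (blue), with symbols for the replicate number and genes ordered by their level per kb. The groups overlap for each of the 12 genes, and Nqo1 is the lowest at 4.98 to 97.8.

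Genes around the pathway were counted from 7 lists of 106 genes, of which 90 were listed and 89 tested. DESeq2 with the replicate term called 8 of the 89 higher (8.99%, against 4.57% of all genes) and 5 lower (5.62%, against 2.58%). Limma and edgeR without the term called 0. At an unadjusted p below 0.05 they counted 13 and 14 of the 89, and each counted 1021 of all 13997 genes tested. None of the 11 tested partners of NRF2 passed. Sqstm1, which binds Keap1, averaged 10624 ± 4696 in shJag1_3 and 8831 ± 2909 in shCtrl (SD, n = 3 each), and Nfe2l1, a relative of Nfe2l2, averaged 7992 ± 2135 in shJag1_3 and 8028 ± 2335 in shCtrl. Without the replicate 1, 2 and 3 libraries in turn, 16, 1 and 0 of the 89 were called higher, where 8.97%, 0.457% and 0.607% of all genes were, and 12, 0 and 1 lower, where 6.23%, 0.25% and 0.257% were.

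Of 26 tested redox genes linked to NRF2, 4 rose (15.4%, against 4.57% of all genes) and 2 fell (7.69%, against 2.58%). Hmox1, heme oxygenase, had 586, 2792 and 1775 normalised counts in shJag1_3 and 423, 599.5 and 622 in shCtrl (log2 difference 1.41, SE 0.33, adjusted p = 0.00115 in DESeq2 with the replicate term). Only shJag1_3 1 lay within the range of shCtrl. Slc7a11, the cystine transporter that feeds glutathione synthesis, had 979, 850.3 and 3308 in shJag1_3 and 1605, 4561 and 6793 in shCtrl, lower in each pair with overlapping groups (-1.38, SE 0.32, adjusted p = 0.00122). Ftl1, the ferritin light chain, a gene with pseudogene copies that could share its reads, had 56959, 55351 and 39808 in shJag1_3 and 42440.5, 24670.2 and 25881 in shCtrl (0.74, SE 0.21, adjusted p = 0.00978). Me1 and Ptgr1 also rose and Slc48a1 also fell, named here, like Abcb1b below, after their values were seen.

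Of 14 tested export and hydrolysis genes, 3 rose (21.4%, against 4.57% of all genes) and 1, Abcb1b, fell (7.14%, against 2.58%). Abcc3, a pump for conjugated organic anions, had 1286, 4540.3 and 5549 normalised counts in shJag1_3 and 751, 2376 and 2197 in shCtrl (log2 difference 1.02, SE 0.20, adjusted p = 3.69e-05 in DESeq2 with the replicate term). Ephx2, soluble epoxide hydrolase, had 254, 1708 and 938 in shJag1_3 and 143, 733 and 407 in shCtrl (1.10, SE 0.21, adjusted p = 4.20e-05). Both were lowest in library 1 of each group and higher in shJag1_3 in each pair. Ces2c, a carboxylesterase, had 12.3, 103 and 45.8 in shJag1_3 and 1.66, 9.19 and 8.72 in shCtrl, without overlap at low counts (2.94, SE 0.73, adjusted p = 0.00287).

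Of 11 tested genes of aldehyde and alcohol oxidation, 1 rose (9.09%, against 4.57% of all genes) and 2 fell (18.2%, against 2.58%). Aldh3b1 had 675, 1298 and 961 normalised counts in shJag1_3 and 447, 772 and 650.3 in shCtrl (log2 difference 0.64, SE 0.19, adjusted p = 0.0184 in DESeq2 with the replicate term). Aldh2, the mitochondrial aldehyde dehydrogenase, had 9739.5, 31575 and 22543 in shJag1_3 and 10779, 62907 and 60567 in shCtrl. It was slightly lower in pair 1 and further lower in pairs 2 and 3 (-0.86, SE 0.26, adjusted p = 0.0226). Aox1, aldehyde oxidase, had 141, 122 and 111 in shJag1_3 and 204, 216 and 335 in shCtrl, without overlap (-0.98, SE 0.34, adjusted p = 0.0499). No gene passed among the 7 partners of P450s, the 11 tested xenobiotic receptors and their partners, or the 9 tested genes that supply conjugation. Por, the reductase that feeds electrons to P450s, averaged 11533 ± 3958 in shJag1_3 and 9534 ± 2444 in shCtrl, and Arnt, the partner of the aryl hydrocarbon receptor, averaged 3134 ± 607 in shJag1_3 and 3066 ± 205 in shCtrl (SD, n = 3 each).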

How the data were processed

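Total RNA of 6 organoid libraries was sequenced with an Illumina TruSeq RNA v2 kit, per the labels' protocols. This kit does not mark strand, so reads of genes that overlap on opposite strands are merged. Tools named in the submitters' processing notes are Trimmomatic, STAR 2.5.2b, DESeq2 1.32.0, with the build GRCm38. The counting tool and annotation are not given in the sources used here. The deposited values are a normalised signal, read counts that the authors divided by 1 size factor per library. Dividing by the smallest step of each library returned whole reads for 100% of values, within 0.001 of a read. The 6 deposited tables were identical, and 5 copies were left out. The table listed 14302 features, 48 of them ERCC spike-in RNAs that entered no gene test, and 14226 genes were matched to a symbol by their Ensembl ID. Levels per kb use the union of exons in GENCODE M21 (GRCm38), which also gave gene positions, and shared sequence is the share of a gene's exonic runs of 50 bases found in other annotated transcripts.

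Groups were taken from the titles. Limma-trend 3.58.1 (R 4.3.3) was fitted to log2 of the normalised count plus 1 for 13997 genes with at least 10 in at least 3 libraries, without a covariate, with Benjamini-Hochberg adjustment over all of them and a threshold of 0.05. As alternatives, edgeR 4.0.16 (quasi-likelihood test with TMM) and DESeq2 1.42.0 were run on the recovered reads, each fit also with the replicate number as a term. An adjusted p that DESeq2 left out was kept as missing. Libraries sharing number 1, 2 and 3 deviated together from their group means, with correlations over genes of 0.677, 0.568 and 0.443, all above 0.1, so the numbers were treated as pairs. What a number stands for is not stated in the labels, and shCtrl 3 with shJag1_3 2 (0.385) and shCtrl 2 with shJag1_3 3 (0.365) passed too. With replicate 1 apart in both groups, libraries 2 and 3 of both groups deviated the other way. The threshold therefore cannot show that 2 pairs with 2 and 3 with 3.

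The member genes, the lists around them and the tests were chosen with earlier results of these data known, and none is independent support. Named genes are Jag1, the genes the rule names, members called by limma, edgeR or DESeq2 on all 6 libraries with or without the replicate term, the 3 members of each family with the highest mean count and, per related list, up to 3 called genes or else 2 by mean. Others are named as chosen after their values were seen. Promoter windows are from RefSeq (GRCm38.p6). Leaving out each replicate number, and spike-in scaling, in DESeq2 with the replicate term were alternatives chosen after seeing the data.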

Additional observations from a re-analysis of the deposited data

How the results depend on the processing

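With 3 libraries a group, of which replicate 1 stood apart, calls depended on the test and the libraries. The values of 59 named genes under 21 alternatives came to 1232, of which 1050 kept direction and call, 134 gained a call and 48 changed sign, in 13 genes, and 46 genes never changed sign. As reported by limma, 0 genes passed in either direction, so no call could be lost and a kept call means staying uncalled. The tally does not measure how stable the calls of DESeq2 with the replicate term were. Named genes include those called in these data, so a steady sign is no separate support. The median difference of the members was 0.32, 0.14 with spike-in scaling in limma and in DESeq2 with the replicate block, and 0.26 to 0.48 with 1 library left out. Over all genes the median with spike-in scaling was -0.18 in both fits.

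Genes called higher and lower were 2 and 0 with the replicate block in limma and in edgeR, 101 and 73 in DESeq2, 640 and 361 in DESeq2 with the replicate block (40 and 71 with spike-in scaling), 77 and 39 with spike-in scaling in limma, 846 and 500 in limma on replicates 2 and 3 only, and 1892 and 1425 there with the replicate block. Leaving out single libraries gave 0 to 210 higher and 0 to 84 lower, the highest without shCtrl 1, and leaving out replicate numbers 1, 2 and 3 in DESeq2 with the block gave 1256, 64 and 85 higher and 872, 35 and 36 lower. Among the members, the same fits called 1 and 0 higher and lower with the replicate block in limma and in edgeR, 3 and 0 in DESeq2, 16 and 2 with the replicate block (1 and 1 with spike-in scaling), 3 and 0 with spike-in scaling in limma, 13 and 2 on replicates 2 and 3 only, and 20 and 3 there with the replicate block. Leaving out single libraries gave 0 to 4 higher and 0 to 1 lower, and leaving out replicate numbers 1, 2 and 3 in DESeq2 with the block gave 13, 3 and 7 higher and 3, 0 and 0 lower. Among the genes around the pathway the counts were 1 and 0 in DESeq2, 8 and 5 with the replicate block (1 higher with spike-in scaling), 10 and 6 on replicates 2 and 3 only, and 20 and 15 there with the block. Leaving out single libraries gave 0 higher and 0 to 1 lower, and leaving out replicate numbers 1, 2 and 3 in DESeq2 with the block gave 16, 1 and 0 higher and 12, 0 and 1 lower. These gains follow fewer libraries or another test, and the cause was not tested further.

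The log2 differences that changed sign were as follows. Ranges with 1 library left out were -0.056 to 0.42 for Gclc, -0.10 to 0.43 for Gclm, -0.017 to 0.42 for G6pdx, -0.070 to 0.42 for Pgd, -0.31 to 0.39 for Cyp4f13, -1.32 to 0.97 for Ugt2b35, -0.30 to 1.40 for Cbr3, -0.10 to 0.62 for Sqstm1, -0.27 to 0.22 for Nfe2l1, -0.093 to 0.18 for Arnt and -0.16 to 0.76 for Slc26a2. With spike-in scaling limma gave -0.060 for Gclm, -0.021 for Txnrd1, -0.038 for Pgd, -0.10 for Cyp4f13, -0.18 for Nfe2l1 and -0.17 for Arnt. With spike-in scaling DESeq2 with the replicate block gave -0.0054 for Gclc, -0.075 for Gclm, -0.031 for Txnrd1, -0.042 for Pgd, -0.10 for Cyp4f13, -0.18 for Nfe2l1 and -0.17 for Arnt. In both of these spike-in fits the median of all genes was -0.18. On replicates 2 and 3 only, with and without the block, limma gave -0.00094 for Cyp4f13, -0.57 for Ugt2b35 and -0.054 for Nfe2l1. DESeq2 with the block gave -0.0059 for Cyp4f13, -0.63 for Ugt2b35 and -0.059 for Nfe2l1 without replicate 1, 0.013 for Nfe2l2 and -0.095 for Arnt without replicate 2, and -0.057 for Gclm, -0.030 for Nfe2l1 and -0.090 for Slc26a2 without replicate 3. Nfe2l1 was -0.0075 in edgeR and -0.0053 in DESeq2.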

Other observations

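Mgst3, a microsomal enzyme of glutathione conjugation that the symbol rule leaves out, was noticed among the genes around the pathway after its values were seen. It had 674, 1311 and 2218 normalised counts in shJag1_3 libraries 1, 2 and 3, against 475, 229 and 194 in shCtrl libraries 1, 2 and 3, so every shJag1_3 library lay above every shCtrl library. DESeq2 gave a log2 difference of 2.21 (SE 0.78, adjusted p = 0.0597) with the replicate term and an adjusted p of 0.007 without it, while limma gave 0.604. The ratios within pairs 1, 2 and 3 were 1.42, 5.74 and 11.4. Gpx2, a glutathione peroxidase of epithelia, was also named after its values were seen. It had 59323, 13862 and 4237 in shJag1_3 and 61797, 3475 and 7344 in shCtrl. Gpx2 was highest in both replicate 1 libraries, with no common direction over the pairs (log2 difference 0.35, SE 0.78, adjusted p = 0.887 in DESeq2 with the replicate term).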
